A study of Mus musculus with 4 samples.

Results

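Among the CD8-positive T cells sorted from B16F10 melanomas, 1358 of 38316 kept cells met a rule built on transcripts of Ly49 receptors. These are the lectin-like receptors for MHC class I encoded by the Klra genes. Kept cells had 500 or more genes detected, and no more than 10% of their UMIs were mitochondrial (a UMI marks 1 captured RNA molecule). A kept cell was counted as a Ly49 cell with at least 2 UMIs summed over Klra1, Klra3, Klra6 and Klra7. It also had at most 1 UMI summed over Klrg1, Cx3cr1 and S1pr5 and no UMI of Havcr2. The cycling genes Mki67, Top2a, Birc5 and Ube2c summed to at most 1 UMI. The cells were thus chosen by their measured Klra counts, and Klra levels are given below as a description. By sample, the Ly49 cells numbered 394 of 10711 kept cells in sgArid1a replicate 1 and 658 of 12790 in sgArid1a replicate 2, against 155 of 7646 in sgScr replicate 1 and 151 of 7169 in sgScr replicate 2.

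The study compared CD8 T cell samples labelled sgArid1a with samples labelled sgScr, and each group had 2 samples. The labels stand for a guide RNA against Arid1a, which encodes part of the SWI/SNF chromatin remodeller, and for a scrambled guide. B16F10 is a transplantable melanoma line. The host mice of both groups were C57BL/6J aged 6 to 8 weeks, and their tumours were digested, enriched on Percoll and sorted for living cells positive for CD45, CD3 and CD8 before 5′ droplet sequencing. Neither the cells that carried the guide nor a separate animal for each replicate is named in the labels, so a p-value here reflects how far these samples spread, and that spread may be technical. The libraries held 39713825 and 81916795 UMIs in sgArid1a (replicates 1 and 2) and 35881501 and 32484099 in sgScr; values below follow this order of replicates. Summed over the Ly49 cells, there were 1205346 and 3479975 UMIs in sgArid1a and 828278 and 805162 in sgScr, and sgArid1a replicate 1 was the shallowest per cell, with a median of 2656.5 UMIs per Ly49 cell, against 4412.5 in sgArid1a replicate 2, 5110 in sgScr replicate 1 and 4866 in sgScr replicate 2. Between 78 and 231 barcodes were shared by any pair of libraries; of these, 3 to 20 were a Ly49 cell in 1 library or both, and 1 barcode, in sgArid1a replicate 2 and sgScr replicate 1, was a Ly49 cell in both. Arid1a itself was read in the Ly49 cells at 78.8 and 81.6 CPM (UMIs of the gene per 1000000 UMIs of the summed cells) in sgArid1a and 66.4 and 83.2 CPM in sgScr, with a log2 fold change of 0.13 ± 0.16 (SE) and an adjusted p of 0.737 by edgeR's quasi-likelihood test. The groups overlapped, and this level does not check the labels. They do not say whether these cells carried the guide, and editing can destroy a protein while its transcript is still read.

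Ly49 receptors are best known from natural killer cells, where inhibitory members recruit phosphatases through a tyrosine motif in the cytoplasmic tail (ITIM) when they meet MHC class I, and activating members lack the motif and signal through an adaptor instead. In mice, a small share of CD8 T cells also carries inhibitory Ly49 receptors. Some of these cells have been described as regulatory and express Ikzf2, which encodes the transcription factor Helios, and innate-like T cells that express Fcer1g, the gamma chain of Fc receptors, have been described in tumours. The CD8 coreceptor is a heterodimer of the products of Cd8a and Cd8b1 on conventional T cells, whereas unconventional T cells, such as those of the gut epithelium, often carry a homodimer of the Cd8a product.

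The start of the coding sequence shows which kind of receptor each gene encodes. The first 60 coding bases of the 4 genes that chose the cells (Ly49A, C, F and G by their protein names) are printed with those of Klra4 and Klra8, which encode the activating receptors Ly49D and Ly49H. Bases are from GENCODE M21 transcripts on GRCm38, 5′ to 3′, and capitals mark the codons of the ITIM.
Klra1: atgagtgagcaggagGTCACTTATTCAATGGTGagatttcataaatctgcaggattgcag
Klra3: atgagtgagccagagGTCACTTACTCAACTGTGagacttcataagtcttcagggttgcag
Klra6: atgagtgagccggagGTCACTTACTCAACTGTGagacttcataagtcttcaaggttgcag
Klra7: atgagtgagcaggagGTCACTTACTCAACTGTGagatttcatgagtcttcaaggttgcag
Klra4: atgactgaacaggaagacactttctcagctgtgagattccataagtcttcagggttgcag
Klra8: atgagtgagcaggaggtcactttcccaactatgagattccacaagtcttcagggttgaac
The 4 genes of the rule held the motif in this stretch and the 2 activating genes did not. Klra3 and Klra6 were identical at 58 of the 60 bases, Klra6 and Klra7 at 57, Klra1 and Klra7 at 52, and Klra7 and Klra4 at 51. Because the genes are this alike, exact sharing of sequence was searched among the principal protein-coding transcripts of the Klra genes. No 90-base window of Klra1, Klra6 or Klra7 occurred unchanged in another of these transcripts. Of the 895 windows of Klra3, 32 (3.58%) occurred in another, namely Klra10, none of them in the first 300. Windows that differ at a few bases were not counted, so the share of reads that could be miscounted was not measured. All 6 genes lie on chromosome 6 (GRCm38), Klra7 at 130218605 to 130233322 and Klra6 at 130013033 to 130026954, both on the minus strand.

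Klra7 was the receptor read most often in the Ly49 cells. It was detected in 1019 cells (75.0%) and gave 50.3% of their Klra UMIs, Klra6 in 663 cells (48.8%), Klra1 in 472 (34.8%) and Klra3 in 259 (19.1%). Klra7 stood at 574 and 430 CPM in sgArid1a and 454 and 349 CPM in sgScr, and Klra6 at 242 and 166 CPM in sgArid1a and 185 and 161 CPM in sgScr. Klra1 stood at 192 and 142 CPM in sgArid1a and 144 and 125 CPM in sgScr, and Klra3 at 90.4 and 75.9 CPM in sgArid1a and 89.3 and 96.9 CPM in sgScr. These levels are not divided by transcript length, so they compare samples and not genes. Klra7, Klra6 and Klra3 overlapped between the groups, and the lower Klra1 value of sgArid1a was just under the higher value of sgScr. Outside the 4 genes, Klra9 (Ly49I) was detected in 99 cells (7.29%), at 29.0 and 21.8 CPM in sgArid1a and 22.9 and 17.4 CPM in sgScr. The activating Klra4 was found in 8 cells and Klra8 in 6, Klra5 in 10 and Klra10 in 1, while Klra2 and Klra17 had no UMI in these cells.

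**Figure D1:**
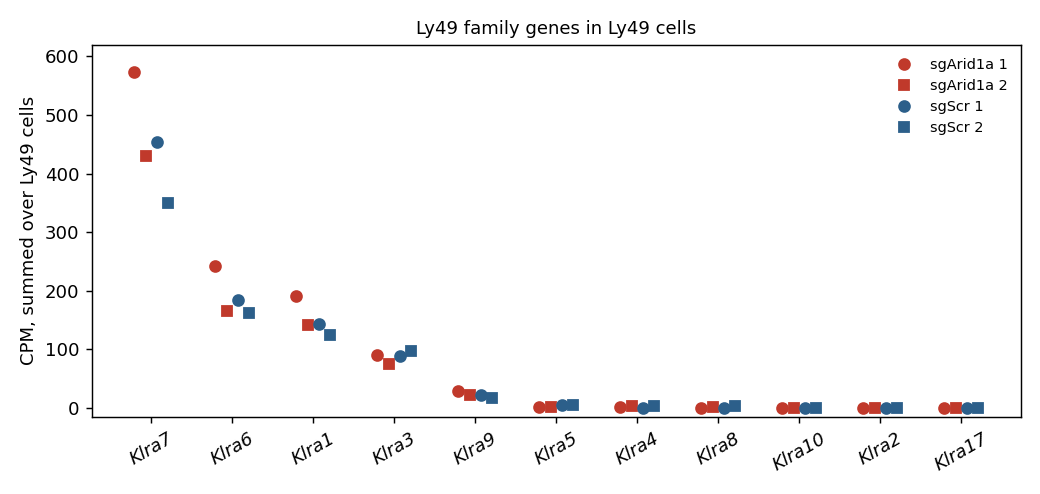
Level of the 11 Klra genes (CPM) in the Ly49 cells of each of the 4 samples, sgArid1a left of sgScr. Klra7 was the most read in each sample, between 349 and 574 CPM, and the activating genes were near 0.

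Most Ly49 cells carried more than 1 of the 4 receptor transcripts. Of the 1358 cells, 521 (38.4%) had UMIs of 1 gene, 634 (46.7%) of 2, 188 (13.8%) of 3 and 15 (1.10%) of all 4. Klra6 and Klra7 were read together in 466 cells (34.3%), Klra1 and Klra7 in 341 (25.1%), and Klra1 and Klra3 in 48 (3.53%). A cell with few captured molecules can miss a gene it expresses, and 2 cells in 1 droplet can add one, so these shares describe detection.

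Cells on both sides of the limit on the Klra sum were compared. The 865 cells with exactly 1 Klra UMI, just outside, averaged 103 CPM of Fcer1g, 158 of Ikzf2, 416 of Cd8a and 655 of Cd8b1 over the samples. The 474 cells with exactly 2, just inside, averaged 209 CPM of Fcer1g, 248 of Ikzf2, 372 of Cd8a and 512 of Cd8b1, and the 290 cells with 3 averaged 164, 221, 344 and 442 CPM of the same genes. In these means Cd8a and Cd8b1 were thus lower at each step, whereas Fcer1g and Ikzf2 were highest at 2 UMIs. Cd8b1 fell at each step in every sample. Cd8a rose from 384 CPM at 1 UMI to 407 CPM at 2 in sgArid1a replicate 1. From 2 to 3 UMIs it was level in sgScr replicate 2. In sgArid1a replicate 2, Fcer1g and Ikzf2 were highest at 3 UMIs, at 211 and 245 CPM. At the other limits, 3 cells lay just outside with 2 UMIs of Klrg1, Cx3cr1 and S1pr5, and 11 with 1 UMI of Havcr2. Of the members, 62 held 1 UMI of the cycling genes, 17 and 38 cells in sgArid1a and 4 and 3 in sgScr. The 4 sample values averaged 775 CPM of Cd8b1 and 173 CPM of Gzmb. Cd8b1 stood at 867 and 494 CPM in sgArid1a and 893 and 846 CPM in sgScr. Gzmb stood at 147 and 158 CPM in sgArid1a and 387 and 0 CPM in sgScr.

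Fcer1g and Ikzf2, which name these cells beside the Klra genes, were high in all 4 samples. Fcer1g stood at 313 and 207 CPM in sgArid1a and 221 and 133 CPM in sgScr in the Ly49 cells. In Ly49-negative cells, the 29846 cells with no UMI of the 4 Klra genes that met the other limits, it stood at 16.4 and 12.2 CPM in sgArid1a and 2.58 and 1.60 CPM in sgScr. In Klrg1 group cells, 367 cells with at least 2 UMIs of Klrg1, Cx3cr1 and S1pr5 and at most 1 of the 4 Klra genes, it had no UMI in 3 samples and 36.7 CPM in sgArid1a replicate 2. The Ly49 cells of each sample lay above both other classes. Ikzf2 stood in the Ly49 cells at 272 and 258 CPM in sgArid1a and 252 and 284 CPM in sgScr, against 49.99 and 40.8 CPM in sgArid1a and 22.7 and 24.4 CPM in sgScr in the Ly49-negative cells. These genes gave the cells their name, so the differences are a description with no test.

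Cell by cell, the label covered part of the population. With each cell of at least 2000 UMIs thinned to 2000, Fcer1g was detected in 30.4 and 25.3% of the sgArid1a and 24.5 and 17.2% of the sgScr Ly49 cells, against 1.59 and 0.897% of the sgArid1a and 0.375 and 0.216% of the sgScr Ly49-negative cells. Ikzf2 was detected in 36.6 and 37.6% of the sgArid1a and 33.5 and 43.0% of the sgScr Ly49 cells, against 6.85 and 5.37% of the sgArid1a and 3.02 and 3.22% of the sgScr Ly49-negative cells. Unthinned, Fcer1g was found in 38.8 and 38.4% of the sgArid1a and 34.2 and 25.8% of the sgScr Ly49 cells. The Ly49-negative cells were shallower, with medians of 2098 and 3385 UMIs in sgArid1a and 3578 and 3432 UMIs in sgScr. Thinning puts both classes at 1 depth but leaves out cells under 2000 UMIs, and more of the Ly49-negative cells. In sgArid1a replicate 1 it left out 85 of 394 Ly49 cells and 3654 of 8006 Ly49-negative cells. In sgScr it left out no Ly49 cell, against 514 and 612 Ly49-negative cells.

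Both coreceptor chains were read less in the Ly49 cells than in the Ly49-negative cells, Cd8b1 by more than Cd8a. Cd8b1 averaged 446 ± 35.1 CPM in the Ly49 cells and 1254 ± 59.9 CPM in the Ly49-negative cells (SD, n = 4 samples), and its 4 values in the Ly49 cells, 439 and 408 CPM in sgArid1a and 493 and 443 CPM in sgScr, lay apart from those of the other class. Cd8a averaged 359 ± 75.2 CPM in the Ly49 cells and 565 ± 97.0 CPM in the Ly49-negative cells. In the Ly49 cells Cd8a stood at 395 and 442 CPM in sgArid1a and 272 and 325 CPM in sgScr. Cd8b1 divided by Cd8a gave 1.11 and 0.922 in sgArid1a and 1.81 and 1.36 in sgScr in the Ly49 cells, a mean of 1.30 ± 0.386, against 2.28 ± 0.493 in the Ly49-negative cells and 2.40 ± 0.721 in the Klrg1 group cells. The ratio was below that of the Ly49-negative cells within each sample. Without cells that carried 2 or more Trbv segments, which include doublets, the ratio in the Ly49 cells averaged 1.15.

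**Figure D2:**
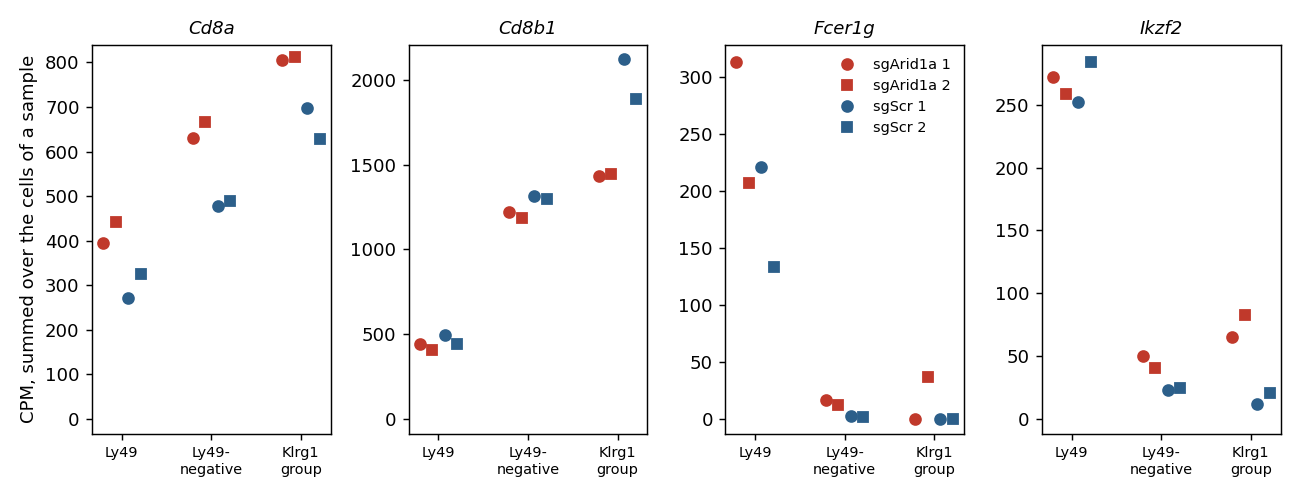
Levels of Cd8a, Cd8b1, Fcer1g and Ikzf2 (CPM) in the Ly49 cells, the Ly49-negative cells and the Klrg1 group cells, with 1 point per sample. Cd8b1 of the Ly49 cells lay between 408 and 493 CPM, below the other classes, while Fcer1g and Ikzf2 lay above them.

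The ratio of the sums came from a mix of cells. After thinning to 2000 UMIs, both chains were detected in 27.2 and 21.4% of the sgArid1a and 20 and 21.2% of the sgScr Ly49 cells, against 57.9 and 57.8% of the sgArid1a and 49.0 and 50.3% of the sgScr Ly49-negative cells. Cd8a without Cd8b1 was seen in 23.0 and 29.0% of the sgArid1a and 17.4 and 17.9% of the sgScr Ly49 cells, against 7.74 and 8.16% of the sgArid1a and 5.85 and 5.57% of the sgScr Ly49-negative cells. Cells with Cd8b1 alone remained common among the Ly49 cells, at 23.3 and 23.7% in sgArid1a and 27.7 and 22.5% in sgScr. The Ly49-negative cells had more of them, at 28.5 and 26.9% in sgArid1a and 38.1 and 36.5% in sgScr. Neither chain was read in 26.5 and 26.0% of the sgArid1a and 34.8 and 38.4% of the sgScr Ly49 cells. Among the Ly49-negative cells this share was lower, at 5.91 and 7.14% in sgArid1a and 7.08 and 7.60% in sgScr. All cells had been sorted on CD8, so a missing UMI does not show a missing protein.

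Within the Ly49 cells, those with a UMI of Fcer1g had the lower Cd8b1 and Cd8a and the higher Tyrobp and Cd7. Cd8b1 stood at 395 and 348 CPM in sgArid1a and 220 and 244 CPM in sgScr in the cells with Fcer1g, against 468 and 444 CPM in sgArid1a and 620 and 504 CPM in sgScr in those without it. Cd8a stood at 365 and 412 CPM in sgArid1a and 239 and 223 CPM in sgScr with Fcer1g. Without Fcer1g, Cd8a stood at 414 and 460 CPM in sgArid1a and 287 and 357 CPM in sgScr. Tyrobp, which encodes the adaptor DAP12, stood at 103 and 59.6 CPM in sgArid1a and 34.2 and 63.7 CPM in sgScr with Fcer1g, against 12.3 and 9.67 CPM in sgArid1a and 8.85 and 9.73 CPM in sgScr without it. Cd7, a surface protein of T and NK cells, stood at 790 and 844 CPM in sgArid1a and 828 and 845 CPM in sgScr with Fcer1g, against 483 and 419 CPM in sgArid1a and 444 and 441 CPM in sgScr without it. These directions held in all 4 samples. Ikzf2 too was higher with Fcer1g, at 304 and 325 CPM in sgArid1a and 380 and 446 CPM in sgScr, against 251 and 218 CPM in sgArid1a and 193 and 235 CPM in sgScr without it. The median UMIs of both subsets were close, at 2668 and 4335 in sgArid1a and 4995 and 4553 in sgScr with Fcer1g, and 2647 and 4453 in sgArid1a and 5149 and 4947 in sgScr without it. The split was made on measured values, so it carries no test.

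Fcer1g and Tyrobp both encode adaptors with an activating tyrosine motif (ITAM), and the coding stretch of each motif is printed with the codons of its pair of tyrosine boxes in capitals. The sequences are from GENCODE M21 transcripts on GRCm38, Fcer1g on chromosome 1 at coding bases 193 to 237 and Tyrobp on chromosome 7 at coding bases 274 to 318.
Fcer1g: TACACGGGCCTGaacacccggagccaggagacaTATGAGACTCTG
Tyrobp: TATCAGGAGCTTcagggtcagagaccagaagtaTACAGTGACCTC
Tyrobp was read in few Ly49 cells, 6.60 and 7.60% in sgArid1a and 7.74 and 7.28% in sgScr. After thinning to 2000 UMIs it was read in 5.50 and 4.30% of the sgArid1a and 2.58 and 3.97% of the sgScr Ly49 cells, against 0.758 and 0.598% of the sgArid1a and 0.147 and 0.234% of the sgScr Ly49-negative cells.

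Receptor transcripts were those of alpha-beta T cells, with a raised level of gamma-chain transcripts. Of the 1358 Ly49 cells, 2 had no UMI of Cd3d, Cd3e or Cd3g. A Trbv segment was called, with at least 2 UMIs, in 73.4 and 85.6% of the sgArid1a and 89.0 and 88.7% of the sgScr Ly49 cells. Trbv12-1 and Trbv12-2, counted together because they are close copies, made up 62 of 289 calls in sgArid1a replicate 1 (21.5%, Wilson 95% interval 17.1 to 26.5) and 137 of 563 in sgArid1a replicate 2 (24.3%), against 30 of 138 (21.7%) and 37 of 134 (27.6%) in sgScr. In the Ly49-negative cells they made up 13.5 and 15.1% in sgArid1a and 13.6 and 13.3% in sgScr, below the Ly49 cells of each sample. Cells of 1 clone share a segment, and clones were not counted here. At least 2 UMIs of gamma-chain constant genes were found in 0.761 and 4.56% of the sgArid1a and 3.87 and 1.32% of the sgScr Ly49 cells, against 0.500 and 0.688% of the sgArid1a and 0.0903 and 0.211% of the sgScr Ly49-negative cells. Trdc, the constant region of the delta chain, stood between 0.830 and 4.83 CPM in the Ly49 cells and between 3.43 and 4.58 CPM in the Ly49-negative cells. Cells with 2 or more Trbv segments were 11.4 and 19.5% of the sgArid1a and 14.2 and 12.6% of the sgScr Ly49 cells, against 5.17 and 10.2% of the sgArid1a and 9.66 and 9.28% of the sgScr Ly49-negative cells. The part of doublets in the results was not tested beyond the values given without such cells.

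Markers of NK, B, myeloid and CD4 T cells were measured as a check on the sort. The summed NK and ILC1 markers, which include genes that T cells also express, stood at 1263 and 1083 CPM in sgArid1a and 1166 and 1015 CPM in sgScr in the Ly49 cells, against 572 and 550 CPM in sgArid1a and 492 and 473 CPM in sgScr in the Ly49-negative cells. Ncr1, a defining NK gene, had 6 UMIs in all Ly49 cells, at most 3.32 CPM in a sample. Zbtb16, the factor of NKT cells, had 3 UMIs, all in 1 sample, and Cd4, Foxp3 and Il17a had none in the Ly49 cells. The summed B cell markers stood at 173 and 218 CPM in sgArid1a and 220 and 231 CPM in sgScr in the Ly49 cells, against 183 and 198 CPM in sgArid1a and 204 and 200 CPM in sgScr in the Ly49-negative cells. The summed macrophage and dendritic cell markers stood at 141 and 172 CPM in sgArid1a and 110 and 225 CPM in sgScr, with C1qa and Adgre1 at 0 in the Ly49 cells of all 4 samples. Cd79a, a defining B cell gene, stood at 0 and 2.30 CPM in sgArid1a and 0 and 12.4 CPM in sgScr in the Ly49 cells, against 3.99 and 2.67 CPM in sgArid1a and 3.54 and 3.58 CPM in sgScr in the Ly49-negative cells. In edgeR's test between these classes, described below, where 6.14% of all genes were higher and 6.87% lower, 2 of 6 B cell genes were higher in the Ly49 cells, Ighd (6.45 CPM in the Ly49 cells and 1.41 CPM in the Ly49-negative cells) and Cd79b (21.7 CPM in the Ly49 cells and 14.5 CPM in the Ly49-negative cells), and 1, Igkc, was lower. Of 6 macrophage and dendritic cell genes, Fcgr3 was higher, at 4.92 CPM in the Ly49 cells and 1.37 CPM in the Ly49-negative cells. The call of Cd79b was lost without sgArid1a replicate 2, without sgScr replicate 2 and without cells of other types, and that of Fcgr3 without sgArid1a replicate 1; their part in the other results was not tested.

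The Ly49 cells took a larger share of the kept cells in sgArid1a than in sgScr. They were 3.68% (3.34 to 4.05) and 5.14% (4.78 to 5.54) in sgArid1a, against 2.03% (1.73 to 2.37) and 2.11% (1.80 to 2.47) in sgScr, with Wilson 95% intervals in parentheses that cover counting error only. The groups did not overlap. The group means were 4.41 ± 1.04% in sgArid1a and 2.07 ± 0.0559% in sgScr (SD, n = 2 each), a difference of 2.34 percentage points and a ratio of 2.13, and the exact two-sided permutation test gave p = 0.333, the smallest that 2 against 2 samples allow. After thinning to 2000 UMIs the shares were 3.04 and 2.90% in sgArid1a and 1.07 and 1.20% in sgScr, so the sgArid1a replicates came together and stayed above sgScr. A share depends on what the other cells do: of the cells that met the other limits of the rule, 5.55 ± 1.46% in sgArid1a and 2.29 ± 0.0765% in sgScr were Ly49 cells (n = 2 each).

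**Figure D3:**
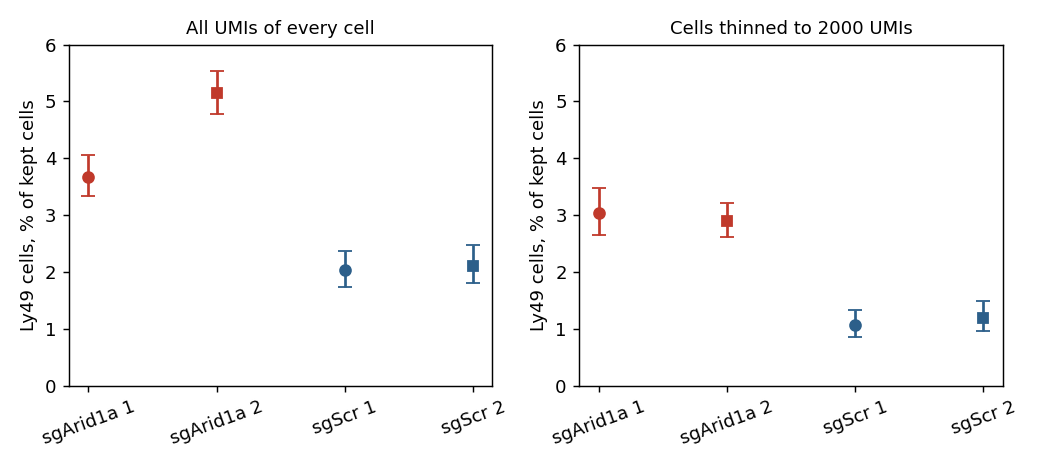
Ly49 cells as a percentage of kept cells in each sample with all UMIs (left) and with each cell thinned to 2000 UMIs (right); bars are Wilson 95% intervals. Both sgArid1a samples lay above both sgScr samples in each panel.

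Against the Ly49-negative cells of the same samples, the Ly49 cells were high in most killer lectins tested and in Il2rb, Cd7 and Id3, and low in Gzmk, Gzmb, Itgae and most homing genes tested. The comparison used sums per sample and class with the sample as a block in edgeR's quasi-likelihood test, and genes of the rule, the other Klra genes, Fcer1g, Ikzf2, Cd8a and Cd8b1 are left out of its tests as reported here. Of 10980 genes tested, 13.0% were called at a Benjamini-Hochberg adjusted p under 0.05, 674 higher (6.14%) and 754 lower (6.87%), with a median log2 fold change over all genes of -0.01. Without sgArid1a replicate 2, the deepest sample, 295 were higher and 352 lower. The Ly49-negative cells are a mix of T cell states, so each difference is one from that mix.

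Of the NKG2 and other killer lectins, 8 of 9 tested were higher and 1 was lower, with a median of 1.94. Klre1, which pairs with other killer lectins on NK cells, stood at 115 and 93.1 CPM in sgArid1a and 88.1 and 85.7 CPM in sgScr in the Ly49 cells. It averaged 95.6 ± 13.5 CPM in the Ly49 cells and 11.6 ± 4.13 CPM in the Ly49-negative cells (SD, n = 4), without overlap (log2 2.99 ± 0.11 SE, adjusted p = 5.13e-14, edgeR). Klrb1c, the gene of NK1.1, averaged 42.6 ± 11.7 CPM in the Ly49 cells and 3.44 ± 0.788 CPM in the Ly49-negative cells (log2 3.54 ± 0.18). Klrc2, the activating NKG2C, averaged 31.4 ± 10.6 CPM in the Ly49 cells and 5.88 ± 0.501 CPM in the Ly49-negative cells, and Klrd1, the CD94 chain, 516 CPM in the Ly49 cells and 320 CPM in the Ly49-negative cells. The 1 lectin that fell was Klrc1, the inhibitory NKG2A, at 56.7 CPM in the Ly49 cells and 67.9 CPM in the Ly49-negative cells (log2 -0.37, adjusted p = 0.0293, edgeR); it lies outside the rule for named genes and was picked after its value was seen. Of the NK and ILC1 markers 8 of 9 were higher and Gzma was lower, with a median of 0.92.

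The adaptors and proximal kinases split. Tyrobp averaged 29.0 ± 13.6 CPM in the Ly49 cells and 3.47 ± 2.39 CPM in the Ly49-negative cells (log2 2.91 ± 0.24, adjusted p = 1.71e-08, edgeR), without overlap. Ptpn6, the phosphatase SHP-1 that the ITIM recruits, averaged 220 ± 23.8 CPM in the Ly49 cells and 128 ± 23.6 CPM in the Ly49-negative cells (log2 0.75 ± 0.08). Lat, the scaffold of T cell receptor signalling, went the other way, with 287 CPM in the Ly49 cells and 514 CPM in the Ly49-negative cells (log2 -0.85 ± 0.05, adjusted p = 2.5e-11, edgeR). In all, 4 of 12 tested members were higher, 2 were lower, and the list's median was 0.02. Of the receptor complex and coreceptor list, 1 of 12 was higher and 4 were lower, among them Themis, a regulator of receptor signalling (log2 -0.83), and Cd28, the costimulatory receptor (log2 -0.34), whose call was lost without either sgArid1a replicate.

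Genes of regulatory and innate-like CD8 T cells were higher in 9 and lower in 3 of 16 tested, with a median of 0.42. Il2rb, the beta chain of the IL-2 and IL-15 receptor, averaged 537 ± 10.4 CPM in the Ly49 cells and 257 ± 64.4 CPM in the Ly49-negative cells (log2 1.05 ± 0.09, adjusted p = 1.46e-08, edgeR). Its 4 Ly49 values lay within 523 to 547 CPM, a narrow range above the other class. Cd160, a receptor of NK and T cells, averaged 168 ± 40.5 CPM in the Ly49 cells and 53.2 ± 16.8 CPM in the Ly49-negative cells (log2 1.63 ± 0.07), and Cd7 571 ± 28.5 CPM in the Ly49 cells and 317 ± 15.5 CPM in the Ly49-negative cells (log2 0.84 ± 0.05). Itgae, the CD103 integrin chain of tissue-resident T cells, was among the 3 that fell, at 2.19 CPM in the Ly49 cells and 16.1 CPM in the Ly49-negative cells (log2 -2.96 ± 0.31). Of the unconventional T cell markers 4 of 8 were higher and none lower, with a median of 0.94. Trgv2, a gamma-chain variable segment, averaged 60.7 ± 10.5 CPM in the Ly49 cells and 11.2 ± 6.57 CPM in the Ly49-negative cells (log2 2.39 ± 0.17), and Tcrg-C4 17.1 ± 5.38 CPM in the Ly49 cells and 1.70 ± 1.01 CPM in the Ly49-negative cells (log2 3.32 ± 0.27); many alpha-beta T cells carry gamma-chain transcripts too.

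Several effector and homing genes fell. Gzmk, a granzyme of effector memory cells, averaged 14.8 ± 1.56 CPM in the Ly49 cells and 100 ± 14.1 CPM in the Ly49-negative cells (log2 -2.81 ± 0.11, adjusted p = 5.2e-14, edgeR), Gzmb 38.9 CPM in the Ly49 cells and 85.3 CPM in the Ly49-negative cells (log2 -1.13 ± 0.10), and Prf1, perforin, 26.5 CPM in the Ly49 cells and 58.2 CPM in the Ly49-negative cells (log2 -1.15 ± 0.12). Of the cytotoxic genes, 5 of 15 were lower and 2 higher, with a median of -0.09. Of the chemokine receptors, integrins and egress genes, 12 of 18 were lower and none higher, with a median of -0.39; matched on UMIs per cell, 6 of 15 were lower and 1 was higher. Cxcr6, a receptor of tissue-resident T cells, averaged 86.2 CPM in the Ly49 cells and 203 CPM in the Ly49-negative cells (log2 -1.24 ± 0.08), and Ccr7, the lymph node homing receptor, 186 CPM in the Ly49 cells and 388 CPM in the Ly49-negative cells (log2 -1.06 ± 0.06). Of the inhibitory receptors and exhaustion genes, 7 of 16 were lower and 3 higher, with a median of -0.31. Pdcd1, the gene of PD-1, stood at 56.8 CPM in the Ly49 cells and 112 CPM in the Ly49-negative cells (log2 -1.04 ± 0.11).

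Memory-associated genes did not move as one. Of the naive, memory and progenitor list, 10 of 17 were lower and 3 higher, with a median of -0.41. Igfbp4, a naive T cell transcript, averaged 17.9 CPM in the Ly49 cells and 151 CPM in the Ly49-negative cells (log2 -3.03 ± 0.12). Id3, a transcription factor of naive and memory cells, was opposite, with 145 ± 31.4 CPM in the Ly49 cells and 47.9 ± 14.1 CPM in the Ly49-negative cells (log2 1.57 ± 0.08), and its relative Id2 had 95.2 CPM in the Ly49 cells and 208 CPM in the Ly49-negative cells (log2 -1.13 ± 0.07). Tcf7, which encodes TCF-1, stood at 378 CPM in the Ly49 cells and 417 CPM in the Ly49-negative cells and did not pass the test (log2 -0.13 ± 0.05, adjusted p = 0.104, edgeR). Xcl1, a chemokine that attracts cross-presenting dendritic cells, averaged 434 ± 171 CPM in the Ly49 cells and 164 ± 105 CPM in the Ly49-negative cells (log2 1.46 ± 0.17). The early genes induced by the T cell receptor were higher in 9 and lower in none of 15 tested, with a median of 0.42; without sgArid1a replicate 2, 4 were called, and with cells matched on UMIs 2 of 12.

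The gene with the largest rise among those named was Rbpms, an RNA-binding protein gene. It stood at 37.3 and 36.5 CPM in sgArid1a and 39.8 and 22.4 CPM in sgScr in the Ly49 cells, and averaged 34.0 ± 7.90 CPM in the Ly49 cells and 2.22 ± 0.525 CPM in the Ly49-negative cells (log2 3.88 ± 0.19, adjusted p = 3.79e-12, edgeR). The classes did not overlap. Further rises were seen in Bmp7, a secreted growth factor gene (log2 2.56 ± 0.21), Gpr15, a homing receptor gene (log2 2.45 ± 0.17), and Qrfp, a neuropeptide gene (log2 2.11 ± 0.14). Among the largest falls were Lgals3, galectin-3 (log2 -2.14), Ly6a, the gene of Sca-1, with 106 ± 42.5 CPM in the Ly49 cells and 447 ± 220 CPM in the Ly49-negative cells, and S100a4, with 55.2 ± 12.9 CPM in the Ly49 cells and 214 ± 82.8 CPM in the Ly49-negative cells. The fall of Ccl1, a chemokine gene (log2 -2.69), lost its call when the sample block was left out, as did the falls of Gzmb and Pdcd1 and the rise of Xcl1.

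**Figure D4:**
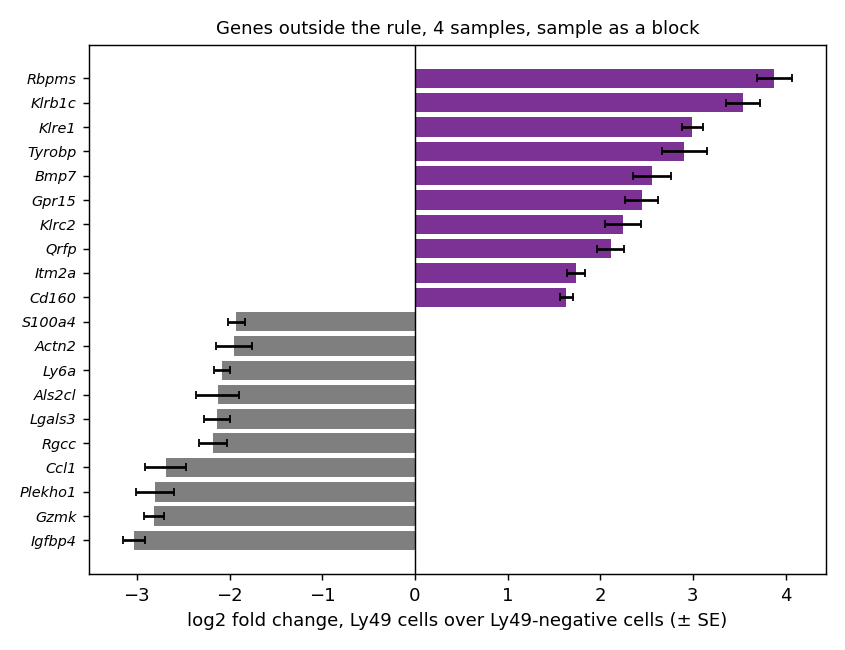
Log2 fold change (± SE) of the Ly49 cells against the Ly49-negative cells for the 20 genes named by a fixed rule, 10 higher and 10 lower. Rbpms, Klrb1c and Klre1 lay at the top and Igfbp4, Gzmk and Plekho1 at the bottom.

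The Klrg1 group cells were chosen by transcripts of terminal effector T cells, among them the killer lectin Klrg1 itself. The Ly49 cells were limited to at most 1 UMI of the same genes. Differences in effector and memory genes between these classes are thus not independent of that choice. Of 6143 genes tested between the classes, 16.7% were called, 518 higher (8.43%) and 508 lower (8.27%) in the Ly49 cells. The cytotoxic genes were lower in 9 and higher in none of 14 tested, with a median of -1.10. Gzma averaged 27.6 ± 6.30 CPM in the Ly49 cells and 1309 ± 227 CPM in the Klrg1 group cells (log2 -5.29 ± 0.11, adjusted p = 2.06e-26, edgeR), and Gzmb 38.9 CPM in the Ly49 cells and 429 CPM in the Klrg1 group cells (log2 -3.20 ± 0.15). Zeb2, a transcription factor of terminal effector cells, averaged 5.21 ± 3.20 CPM in the Ly49 cells and 190 ± 68.1 CPM in the Klrg1 group cells (log2 -4.60 ± 0.21). None of these overlapped between the classes.

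Genes of naive, memory and progenitor cells were instead higher in the Ly49 cells in 11 of 15 tested and lower in 1, with a median of 1.05. Id3 averaged 145 ± 31.4 CPM in the Ly49 cells and 12.3 ± 6.34 CPM in the Klrg1 group cells (log2 3.94 ± 0.24, adjusted p = 2.92e-14, edgeR), and Tcf7 378 ± 65.3 CPM in the Ly49 cells and 168 ± 56.4 CPM in the Klrg1 group cells (log2 1.34 ± 0.12). Rbpms had 223 UMIs in the Ly49 cells and none in the Klrg1 group cells, at least 16.2-fold higher with a floor of 3 counts over the class. Il2rb stood at 537 CPM in the Ly49 cells and 468 CPM in the Klrg1 group cells (log2 0.39, adjusted p = 0.0034, edgeR), a call lost without sgScr replicate 2, in DESeq2 and without the sample block. Of the killer lectins 1 of 6 was higher and 2 were lower, and Tyrobp, at 29.0 CPM in the Ly49 cells and 17.2 CPM in the Klrg1 group cells, did not pass the test (log2 0.39 ± 0.36, adjusted p = 0.54, edgeR).

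Within the Ly49 cells, Isg15 and 12 other interferon-stimulated genes, Nrgn, Gzmb and Fos were higher in sgArid1a than in sgScr. Il7r, Tsc22d3 and Bbc3 were lower. Of 7321 genes tested with edgeR, 1.5% were called, 76 higher (1.04%) and 34 lower (0.464%) in sgArid1a, with a median log2 fold change over all genes of -0.01. The deepest sample carried much of this: without sgArid1a replicate 2 there were 15 higher and 1 lower, whereas without sgArid1a replicate 1 there were 204 higher and 121 lower. In the self-test on simulated counts of this size, 57 of 100 genes changed by 1 on the log2 scale were recovered and 98 of 100 changed by 2. There were 2 false calls. The simulation gave every gene the same spread between samples and set no sample apart, so it does not measure recovery in the real counts.

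Of the type I interferon-stimulated genes, 13 of 23 tested were higher and none lower, with a median of 1.0, where 1.04% of all genes were called higher. Isg15, a ubiquitin-like protein, stood at 106 and 102 CPM in sgArid1a and 15.7 and 13.7 CPM in sgScr (log2 2.83 ± 0.22, adjusted p = 8.43e-07, edgeR). Both sgArid1a samples lay far above both sgScr samples. Ifi27l2a stood at 359 and 349 CPM in sgArid1a and 159 and 142 CPM in sgScr (log2 1.26 ± 0.13), and Bst2, which encodes tetherin, at 197 and 211 CPM in sgArid1a and 93.0 and 116 CPM in sgScr (log2 1.0 ± 0.14). Rtp4, another interferon-induced gene, stood at 102 and 85.9 CPM in sgArid1a and 35.0 and 34.8 CPM in sgScr (log2 1.42 ± 0.20). The groups did not overlap for any of these 4 genes. At an unadjusted p under 0.05, 17 were higher and 0 lower in edgeR. Without sgArid1a replicate 2, 4 of 22 tested were called and Bst2 was not among them, with at least 3 Klra UMIs per cell 6 of 19 were, and DESeq2, which gives no adjusted p to genes of low counts, called 3; none was lower in any of these.

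**Figure D5:**
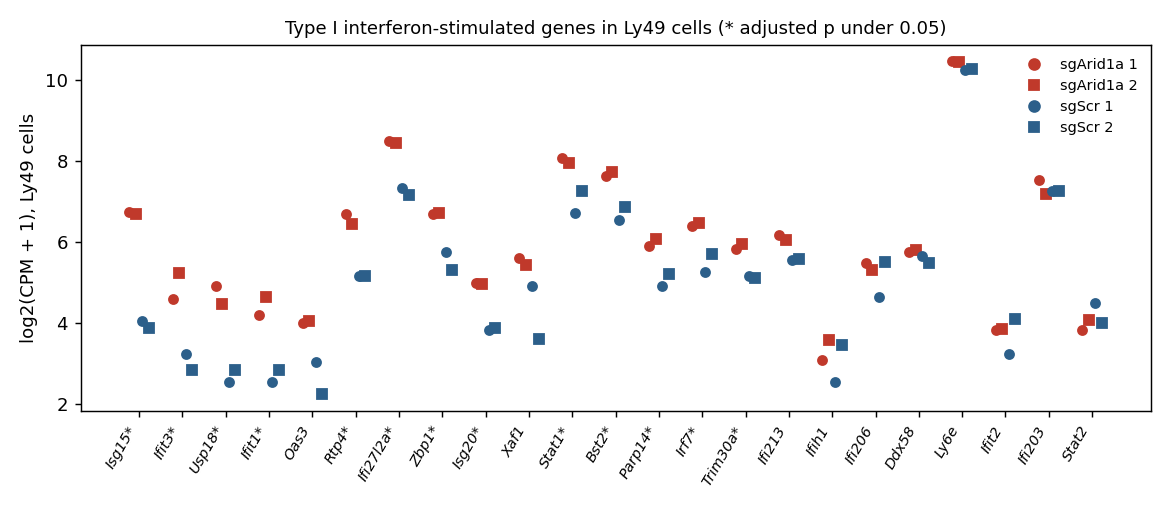
Level of 23 type I interferon-stimulated genes, as log2(CPM + 1), in the Ly49 cells of each sample, with an asterisk at genes with an adjusted p under 0.05. Of the 23 genes, 13 carry the mark, all higher in sgArid1a, with Isg15 at 106 and 102 CPM in sgArid1a and 15.7 and 13.7 CPM in sgScr.

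Other rises were fewer. Nrgn, which encodes the calmodulin-binding protein neurogranin, had the largest named change, at 53.1 and 50.6 CPM in sgArid1a and 6.04 and 4.97 CPM in sgScr (log2 3.23 ± 0.33, adjusted p = 1.62e-05, edgeR). Gzmb stood at 65.5 and 54.9 CPM in sgArid1a and 22.9 and 12.4 CPM in sgScr (log2 1.74 ± 0.27, adjusted p = 0.00157, edgeR), above sgScr though below the Ly49-negative average. Lag3, an inhibitory receptor, was the 1 of 12 tested of its list that passed, at 19.1 and 17.0 CPM in sgArid1a and 4.83 and 1.24 CPM in sgScr (log2 2.51 ± 0.51). The sgScr sums held 828278 and 805162 UMIs, so the sgScr levels of Nrgn and Lag3 rest on few UMIs and their folds are uncertain. Ly6c2 stood at 2583 and 2707 CPM in sgArid1a and 2016 and 1761 CPM in sgScr (log2 0.52 ± 0.10, adjusted p = 0.0117, edgeR); it has a close copy, Ly6c1, so its count is uncertain. The calls of Lag3 and Ly6c2 were lost without sgArid1a replicate 2 and without sgScr replicate 2. Of the heat shock and dissociation genes 5 of 18 were higher, among them Fos at 146 and 156 CPM in sgArid1a and 48.3 and 44.7 CPM in sgScr (log2 1.73 ± 0.16) and Junb at 422 and 513 CPM in sgArid1a and 289 and 268 CPM in sgScr. These genes also respond to tissue digestion, and their part in the other changes was not tested. Without sgArid1a replicate 2, 1 of that list was called and Junb was not, without sgArid1a replicate 1, 11 were, without sgScr replicate 1, 3, and without sgScr replicate 2, 4.

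Il7r, Tsc22d3, Ccr7 and Bbc3 fell in sgArid1a. Il7r, the IL-7 receptor, stood at 402 and 350 CPM in sgArid1a and 704 and 640 CPM in sgScr (log2 -0.82 ± 0.12, adjusted p = 0.000763, edgeR), without overlap. Tsc22d3, a glucocorticoid-induced gene, stood at 83.8 and 96.6 CPM in sgArid1a and 191 and 171 CPM in sgScr (log2 -0.96 ± 0.14), and Ccr7 at 134 and 152 CPM in sgArid1a and 193 and 263 CPM in sgScr (log2 -0.63 ± 0.14). Bbc3, which encodes the death-promoting protein PUMA, stood at 17.4 and 25.6 CPM in sgArid1a and 54.3 and 52.2 CPM in sgScr (log2 -1.18 ± 0.23). Of the naive, memory and progenitor list, 2 of 16 were lower and none higher, with a median of -0.36, and Tcf7 had 318 and 336 CPM in sgArid1a and 462 and 395 CPM in sgScr without passing (log2 -0.36 ± 0.11, adjusted p = 0.128, edgeR). The groups did not overlap for the 4 genes that fell, but all 4 calls were lost without sgArid1a replicate 2, and that of Ccr7 also without sgScr replicate 2. Of the 16 genes named by size, 6 were called without sgArid1a replicate 2, 10 without sgScr replicate 1, and 8 with at least 3 Klra UMIs per cell, where Gzmb and Bbc3 were not among them. DESeq2 called 4 of the 16, Fos, Ifi27l2a, Il7r and Tsc22d3, and gave no adjusted p for Isg15, Nrgn, Gzmb, Rtp4 and Bbc3.

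Of the coreceptor, adaptor and Helios genes, Cd8a passed the test between sgArid1a and sgScr, with a log2 fold change of 0.52 ± 0.12 (adjusted p = 0.0278, edgeR), a call lost without sgArid1a replicate 2, without sgScr replicate 1, with at least 3 Klra UMIs per cell and without cells of 2 or more Trbv segments. Cd8b1 had -0.12 ± 0.11 (adjusted p = 0.641, edgeR), Fcer1g 0.54 ± 0.20 (adjusted p = 0.206, edgeR), Tyrobp 0.84 ± 0.32 (adjusted p = 0.21, edgeR) and Ikzf2 0.01 ± 0.12 (adjusted p = 0.991, edgeR). Fcer1g depended on single samples: it was called without sgScr replicate 1 (log2 0.99, adjusted p = 0.00018, edgeR), had 0.89 without sgArid1a replicate 2, and had 0.23 without sgArid1a replicate 1 or sgScr replicate 2. Over its alternatives its adjusted p ranged from 0.00018 to 0.66, and the fit with a replicate block called it too (log2 0.60, adjusted p = 0.00757, edgeR). The ratio of Cd8b1 to Cd8a in the Ly49 cells averaged 1.02 ± 0.134 in sgArid1a and 1.59 ± 0.319 in sgScr (SD, n = 2 each), and in the Ly49-negative cells 1.86 ± 0.112 in sgArid1a and 2.70 ± 0.0695 in sgScr. None of the 6 killer lectins, 9 NK and ILC1 markers, 13 adaptors or 17 transcription factors tested was called by edgeR or DESeq2. At an unadjusted p under 0.05 in edgeR, 2 killer lectins were lower, 2 NK and ILC1 markers were higher and 2 lower, 2 adaptors were higher, and 1 transcription factor was higher and 3 were lower.

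Whether the sgArid1a effect differed between Ly49 and Ly49-negative cells was tested as an interaction. Of 11583 genes, 0.414% were called by edgeR, 16 with a higher (0.138%) and 32 with a lower effect (0.276%) in the Ly49 cells. No interferon-stimulated gene was called among 28 tested by edgeR, nor by DESeq2, although 7 had a higher effect at an unadjusted p under 0.05: Isg15, at 124 and 128 CPM in sgArid1a and 34.8 and 38.7 CPM in sgScr in the Ly49-negative cells, differed in effect by 1.06 ± 0.26 (adjusted p = 0.0785, edgeR). Of the regulatory and innate-like genes 4 of 17 had a lower effect in the Ly49 cells and none a higher one. The 4 were Il2rb, Ly6c2, Xcl1 and Ikzf2, which also gave the cells their name. With cells matched on UMIs, Ikzf2 and Ly6c2 lost their calls. Il2rb is an example: it stood at 523 and 536 CPM in sgArid1a and 547 and 542 CPM in sgScr in the Ly49 cells, and at 312 and 313 CPM in sgArid1a and 198 and 205 CPM in sgScr in the Ly49-negative cells, a difference of effects of -0.64 ± 0.08 (adjusted p = 7.43e-06, edgeR). Cells with exactly 0 captured Klra UMIs can still be of the same kind as Ly49 cells, and their number among the Ly49-negative cells was not measured. Several called differences were lost when cells were matched on UMIs, as given with the results listed at the end.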

How the data were processed

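Per the labels, each of the 4 samples is 1 droplet library of sorted CD8-positive T cells. The deposited values are whole-number UMI counts per gene and barcode, without normalization. Cell Ranger 6.0.1 wrote the matrices per the file headers, but the submitters' processing notes name version 3.0.2 of it, together with Seurat and the mm10 build. No annotation release was found in the labels or headers. Matrices held 32285 genes and 39473 barcodes in all, and groups came from the sample titles.

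Barcodes were filtered and classed by the limits given in the report. Whether doublets were removed before deposit is not stated, and none were removed here. Counts were summed per sample and class and tested with edgeR 4.0.16 (R 4.3.3; TMM, filterByExpr, quasi-likelihood F test, Benjamini-Hochberg threshold 0.05). The sgArid1a effect had no covariate, and comparisons of classes and the interaction had the sample as a block. DESeq2 1.42.0 was an alternative. Cells were thinned to 2000 UMIs with a fixed random seed, which left out 3929 and 1050 kept cells in sgArid1a and 548 and 651 in sgScr. Of 297 symbols in 22 gene lists, 296 matched. The edgeR fits were checked on counts simulated from the real means, with the same spread between samples for every gene.

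The members and lists were chosen with earlier results of these data known. Genes named were, among called genes of at least 20 CPM without overlap between groups (changed alike in all 4 samples for classes), the 8 largest changes each way for sgArid1a, 10 for classes and 5 for the interaction, without receptor segments and predicted genes; the 3 members of each list with the smallest p; and a fixed set of T cell and Klra genes. Other names were chosen after their values were seen. Nothing in the labels says that replicate numbers pair the samples, so fits of the sgArid1a effect had no replicate block.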

Additional observations from a re-analysis of the deposited data

Results flagged for a closer look

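For 48 genes, the effect of sgArid1a in the Ly49 cells differed from that in the Ly49-negative cells by edgeR's interaction test. Of these, 7 are given here, those named by smallest p in this test, by size in the sgArid1a effect, or by the fixed set. Each value is the log2 effect in the Ly49 cells minus that in the Ly49-negative cells, with its SE. Among these genes, Fcer1g and Ikzf2 also gave the cells their name.

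Fcer1g differed by -2.21 ± 0.18 (adjusted p = 7.78e-09, edgeR), with 313 and 207 CPM in sgArid1a and 221 and 133 CPM in sgScr in the Ly49 cells, against 16.4 and 12.2 CPM in sgArid1a and 2.58 and 1.60 CPM in sgScr in the Ly49-negative cells. Ikzf2 differed by -0.90 ± 0.12 (adjusted p = 2.85e-05, edgeR), with 272 and 258 CPM in sgArid1a and 252 and 284 CPM in sgScr in the Ly49 cells, against 49.99 and 40.8 CPM in sgArid1a and 22.7 and 24.4 CPM in sgScr in the Ly49-negative cells. With cells matched on UMIs, Fcer1g differed by -2.81 (adjusted p = 0.0638, edgeR) and Ikzf2 by -0.086 (adjusted p = 0.994, edgeR). Over the alternatives, the adjusted p from edgeR or DESeq2 ranged from 2.04e-28 to 0.0638 for Fcer1g and from 5.81e-10 to 0.994 for Ikzf2.

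Il2rb differed by -0.64 ± 0.08 (adjusted p = 7.43e-06, edgeR), and by -0.58 with cells matched on UMIs (adjusted p = 0.00356, edgeR), the highest over its alternatives, where the lowest was 2.02e-11. Ccl5, a chemokine of effector T cells, differed by -0.69 ± 0.06 (adjusted p = 1.19e-08, edgeR), with 5407 and 5150 CPM in sgArid1a and 6434 and 5194 CPM in sgScr in the Ly49 cells, against 6639 and 6614 CPM in sgArid1a and 4304 and 4531 CPM in sgScr in the Ly49-negative cells. The call of Ccl5 was lost in DESeq2 (adjusted p = 0.268), and the lowest adjusted p over its alternatives was 6.87e-137.

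S100a6, a calcium-binding protein gene, differed by -0.83 ± 0.09 (adjusted p = 2.86e-06, edgeR), with 271 and 278 CPM in sgArid1a and 239 and 268 CPM in sgScr in the Ly49 cells, against 739 and 694 CPM in sgArid1a and 362 and 356 CPM in sgScr in the Ly49-negative cells. Ly6c2 differed by -0.37 ± 0.05 (adjusted p = 2.85e-05, edgeR), with 1711 and 1922 CPM in sgArid1a and 1007 and 959 CPM in sgScr in the Ly49-negative cells. With cells matched on UMIs the calls of S100a6 and Ly6c2 were lost.

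Lin37, a subunit gene of the DREAM cell cycle complex, differed by 1.23 ± 0.27 (adjusted p = 0.0301, edgeR), with 48.9 and 39.4 CPM in sgArid1a and 15.7 and 18.6 CPM in sgScr in the Ly49 cells, against 38.1 and 38.5 CPM in sgArid1a and 36.1 and 35.4 CPM in sgScr in the Ly49-negative cells.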

How the results depend on the processing

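For the sgArid1a effect in the Ly49 cells, the 76 higher genes became 147 with no filter on low counts, 19 with at least 3 Klra UMIs per cell and 15 to 204 with 1 sample left out; the 34 lower genes became 12 in DESeq2, 7 with at least 3 Klra UMIs and 1 to 121 with 1 sample left out. Leaving out a sample leaves its group with 1, assumed to vary like the rest. Against the Ly49-negative cells, DESeq2 gave 380 lower genes, leaving out the sample block 246 higher and 209 lower, matching cells on UMIs 272 higher and 274 lower, and leaving out 1 sample 295 to 631 higher and 352 to 591 lower. Against the Klrg1 group cells DESeq2 gave 241 higher and 261 lower. For the interaction, DESeq2 gave 1 higher and 15 lower, no filter 40 higher, matching on UMIs 8 higher and 10 lower, and leaving out 1 sample 8 to 33 higher and 24 to 43 lower. The difference in share was 3.61 percentage points with at least 1 Klra UMI and 1.61 to 3.08 with 1 sample left out. A replicate block gave 136 higher genes for the sgArid1a effect. Same-numbered samples deviated from their group means with a correlation of 0.0499. With 2 samples per group, both replicate numbers give this same value by construction. Whether same-numbered samples shared a batch was not tested. The direction turned for 2 named genes: Cd74 in the sgArid1a effect without sgScr replicate 2 (2.30, adjusted p = 0.000759 by edgeR, against -0.53 with all samples; -1.50 to 2.30 with 1 sample left out; adjusted p 3.7e-06 to 0.742 over its alternatives) and Mcm3 against the Ly49-negative cells with cells matched on UMIs (-0.073, adjusted p = 0.854 by edgeR, against 0.31 with all cells; 0.0173 to 0.854 over its alternatives); the cause was not tested. Matching used 1 cell of the other class for each Ly49 cell, and where the Klrg1 group was the smaller class, 1 Ly49 cell for each of its cells.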
